A study of Mus musculus with 10 samples.

Results

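The genes described here encode the proteins of the mitochondrial ribosome, the particle that translates the few mRNAs of the mitochondrial genome. They were taken from a table of read counts as every symbol that begins with Mrpl or Mrps followed by a digit, without symbols that hold -ps or -rs. The rule found 78 of the 25239 symbols in the table, of which 49 were Mrpl (large subunit) and 29 were Mrps (small subunit). It used symbols alone and no measured value, but it was set with earlier results of these data known. The study, whose title concerns ketone body synthesis in Leydig cells and ageing of the testis, measured RNA in 10 mouse libraries in 4 groups. MLTC-1 cells, a line from a mouse Leydig cell tumour, were given DMSO, the solvent (n = 3), or hymeglusin, an inhibitor of HMG-CoA synthase (n = 3). Primary Leydig cells, which make androgens in the testis interstitium, came from mice aged 2 months (n = 2) or 24 months (n = 2) and had no treatment. Dose and time of hymeglusin, mouse strain and the isolation of the primary cells are not in the labels. MLTC-1 is 1 cell line. Whether replicates came from different dishes or mice is not labelled, so each p-value measures only the spread between these libraries, which could be technical.

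The mitochondrial ribosome is assembled in the matrix from rRNAs encoded by mitochondrial DNA and proteins encoded in the nucleus, made in the cytosol and imported. It makes the hydrophobic core subunits of the respiratory chain and of ATP synthase, whose other subunits are encoded in the nucleus. Part of its proteins have counterparts in bacterial ribosomes, and many others have none. In Leydig cells mitochondria also hold the first step of steroid synthesis, the cleavage of the cholesterol side chain.

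Total counts per library ranged from 17407456 to 34787330, and the lowest count of any of the 78 genes in any library was 198. All 78 genes therefore passed the filter on low counts in both comparisons. Summed over the 8 Leydig markers (Cyp17a1, Cyp11a1, Star, Lhcgr, Insl3, Hsd3b6, Hsd17b3 and Nr5a1), the level was 6791 to 6932 CPM (counts scaled to library size) with DMSO and 4951 to 5194 CPM with hymeglusin. Hsd17b3 was at 0 in 2 of the 3 DMSO libraries. In primary cells that sum ranged over 18233 to 20174 CPM at 2 months and over 15414 to 23012 CPM at 24 months. Spermatid markers, 8 of 8 above 0 in each primary library, summed to 1560 and 2066 CPM at 2 months and to 9596 and 4936 CPM at 24 months. The primary preparations thus held RNA of other testis cells, and in bulk samples fewer cells of a type and less RNA per cell cannot be told apart.

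Promoter sequence from RefSeq (GRCm38.p6, the assembly of mm10) was matched by symbol to 69 of the 78 genes. The windows below end at the base before a RefSeq start and hold no annotated exon. For Mrpl45 this is a later start within the gene, whose bounds begin at base 97314923 of chromosome 11. The windows are shown because the first 3 genes fell with hymeglusin, the fourth had the largest rise at 24 months and the last was the only window with 2 matches. Each is printed 5′ to 3′ on the strand of the gene, with capitals for matches to motifs of NRF1 (GCGC, any base, then TGCGC), of ETS factors such as GABP (CCGGAAGT) or of YY1 (AAGATGGC), each searched on both strands. These factors are known from studies of other nuclear genes for mitochondria.
Mrps22, chr9:98601680-98601799, minus strand: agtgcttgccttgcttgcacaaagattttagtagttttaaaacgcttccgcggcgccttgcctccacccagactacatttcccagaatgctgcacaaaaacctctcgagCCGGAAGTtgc
Mrpl20, chr4:155802758-155802877, plus strand: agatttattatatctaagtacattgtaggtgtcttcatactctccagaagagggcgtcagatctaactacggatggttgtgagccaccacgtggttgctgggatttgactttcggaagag
Mrps36, chr13:100744660-100744779, minus strand: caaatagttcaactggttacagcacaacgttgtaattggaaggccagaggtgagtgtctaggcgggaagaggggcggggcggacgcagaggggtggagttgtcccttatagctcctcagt
Mrpl52, chr14:54426789-54426908, plus strand: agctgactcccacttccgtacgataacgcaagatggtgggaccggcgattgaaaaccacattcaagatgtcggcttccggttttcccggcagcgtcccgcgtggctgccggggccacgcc
Mrpl45, chr11:97315596-97315715, plus strand: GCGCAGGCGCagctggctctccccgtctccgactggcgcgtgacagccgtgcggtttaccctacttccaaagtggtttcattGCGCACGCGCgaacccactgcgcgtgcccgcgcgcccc

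The Mrps22 window held the ETS letters 11 bases before the start. The Mrpl45 window held the NRF1 letters at 2 places, 38 and 120 bases before the later start within that gene. The windows of Mrpl20, Mrps36 and Mrpl52 held none of the 3 motifs in exactly these letters. Over the 250 bases before the start, the NRF1 letters stood in 10 of the 69 genes (14.5%), against 9.52% of 10135 other genes tested with hymeglusin. The ETS letters stood in 10 (14.5%, against 6.95%) and the YY1 letters in 4 (5.80%, against 2.52%). Any of the 3 stood in 23 of the 69 (33.3%, against 17.6%). Among the genes that fell with hymeglusin 8 of 21 held a match (38.1%), and among those that did not fall 15 of 48 did (31.2%). These shares describe letters in a window and were not tested.

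Summed over its genes, the large subunit stood at similar levels in the MLTC-1 groups and at 2 months, and higher at 24 months. For this comparison of groups, CPM was scaled by TMM (a factor per library from the bulk of its genes) over all 10 libraries. The 49 large subunit genes summed to 2237, 2177 and 2128 CPM with DMSO and to 2179, 2090 and 2175 CPM with hymeglusin. They summed to 2089 and 1935 CPM at 2 months and to 4824 and 3086 CPM at 24 months. The 24-month libraries were thus both above the other 8, and differed from each other more than any other replicates did.

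The 29 small subunit genes summed to 1438, 1429 and 1384 CPM with DMSO, to 1383, 1307 and 1401 CPM with hymeglusin, to 1160 and 1018 CPM at 2 months and to 2462 and 1570 CPM at 24 months. The DMSO and hymeglusin libraries overlapped, and the 2-month libraries were the lowest. The ratio of summed large to summed small subunit CPM was 1.54 ± 0.0160 (SD, n = 3) with DMSO, 1.58 ± 0.0231 (n = 3) with hymeglusin, 1.85 ± 0.0703 (n = 2) at 2 months and 1.96 ± 0.00443 (n = 2) at 24 months. The ratio was higher in the primary cells than in the cell line, with no overlap between the 4 primary and the 6 MLTC-1 libraries. Mrps18a and Mrps30 carry small subunit names but sit in the large subunit, and Mrps36 is known as a subunit of the 2-oxoglutarate dehydrogenase complex. With the former pair moved and the latter left out, the ratios were 1.72, 1.78, 2.06 and 2.198 in the same order.

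**Figure D1:**
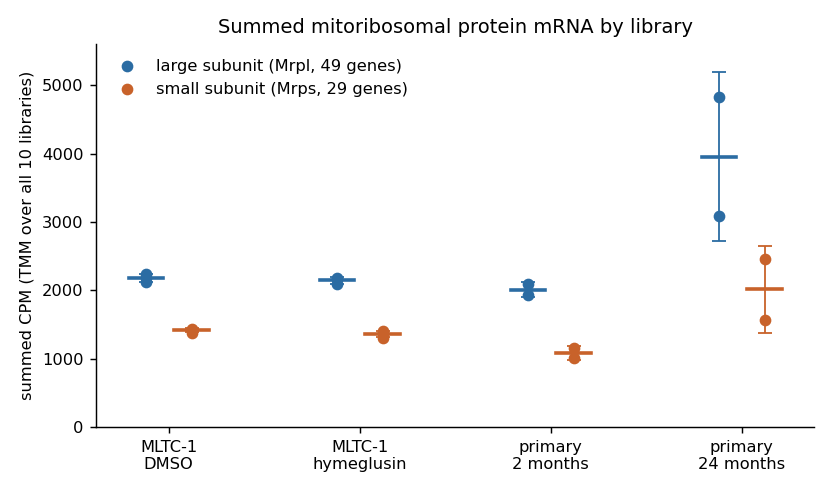
Summed TMM-scaled CPM (y axis, linear) of the 49 large and 29 small subunit genes in each library of the 4 groups; points are libraries, bars are group means and whiskers are the SD. The 24-month libraries, at 4824 and 3086 CPM for the large subunit, lie above the other 8.

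Levels of single genes were compared per kilobase of the longest protein-coding transcript. Mrps21, a small subunit protein with a bacterial counterpart (bS21), was the highest in 3 of 4 groups, at 205 CPM per kilobase with DMSO, 215 with hymeglusin and 127 at 2 months. At 24 months it stood second at 336, after Mrpl52, a large subunit protein without a bacterial counterpart, at 392. Mrpl28 (100) and Mrpl42 (99.6) followed Mrps21 with DMSO, whereas Mrpl52 (99.2) and Mrpl33 (93.5) followed it at 2 months. The lowest with DMSO were Mrpl47 (3.55), Mrpl1 (4.83) and Mrpl32 (4.85), and Mrpl19 was the lowest at 2 months (3.49) and at 24 months (4.63). Levels per kilobase depend on the annotated length, and the low genes have long annotated transcripts, such as 5000 bases for Mrpl19 against 463 for Mrpl52.

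The cell line was also set beside young primary cells. Of the 29 small subunit genes, 19 were higher in all DMSO libraries than in both 2-month libraries and 6 were lower, and the median log2 ratio was 0.35. Of the 49 large subunit genes, 21 were higher and 23 lower without overlap, with a median log2 ratio of −0.16. Over all 17109 genes, 36.8% were higher and 51.2% lower without overlap, with a median of −0.30. Mrps6 stood out on the higher side, at a log2 ratio of 1.74, followed by Mrpl28 at 1.54. Mrpl16 (−1.18) and Mrpl32 (−1.06), both of the large subunit, were the lowest. These groups differ in cell source and culture as well, so the values are given with no test.

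The first comparison asked what the inhibitor changed in MLTC-1 cells. With hymeglusin, 26 of the 78 genes fell and 3 rose, and 49 did not pass the test (edgeR's quasi-likelihood test, adjusted p under 0.05 with Benjamini-Hochberg adjustment over all 12873 genes tested). Among all tested genes 24.5% fell and 23.8% rose, so the share that fell (26 of 78) lay somewhat above that background and the share that rose lay far below it. The changes were small: no gene reached a 1.5-fold difference, and the median log2 fold change was −0.11, against 0.01 over all tested genes. The log2 fold change was below 0 for 62 genes and above 0 for 16. The direction depended on scaling. With total counts in place of TMM, which moved the median of all genes to 0.11, 11 genes fell and 11 rose (15.5% and 36.2% of all tested genes) and the median was −0.0042, below that of all genes. In 1 fit of all 10 libraries, which shares their spread, none passed (0 lower and 1 higher at an unadjusted p under 0.05), and DESeq2 called 24 lower and 1 higher (19.0% and 17.2% of its 15504 genes).

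By subunit, 14 of 49 large subunit genes fell and 3 rose, with a median log2 fold change of −0.10, and 12 of 29 small subunit genes fell and none rose, with a median of −0.14. The difference between the subunits was not tested. Over both, 33 of 78 genes did not overlap between the groups in 1 direction or the other. The same held for 7072 of all 12873 tested genes, of which 27.7% were higher and 27.3% lower. The share of the 78 genes was thus below that background.

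The 3 largest falls were in genes with small subunit names, Mrps6, Mrps28 and Mrps36. Mrps6, which has a bacterial counterpart (bS6), stood at 61.2, 59.0 and 53.4 CPM with DMSO and at 41.7, 39.6 and 41.4 CPM with hymeglusin. Every treated library lay below every control, and the log2 fold change was −0.50 ± 0.063 (SE), with an adjusted p of 3.21e-08. On chromosome 16 (mm10, 92058336 to 92112227, plus strand), Mrps6 shares 159 exon bases on the same strand with Slc5a3, an inositol transporter gene whose log2 fold change was −0.65, and reads from these bases cannot be assigned to either gene.

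Mrps28 stood at 17.7, 19.9 and 20.9 CPM with DMSO and at 14.9, 14.2 and 13.6 CPM with hymeglusin, without overlap. Its log2 fold change was −0.46 ± 0.090 (adjusted p = 6.14e-05). Mrps36, the gene counted here by its name but known from the 2-oxoglutarate dehydrogenase complex, stood at 27.7, 22.5 and 22.2 CPM with DMSO and at 18.8, 16.4 and 18.2 CPM with hymeglusin, also without overlap. It fell by 0.44 on the log2 scale (adjusted p = 0.000104), and its first DMSO library was the highest of the 6. Mrps27, a member without a bacterial counterpart, fell by 0.35 and Mrps33 fell by 0.33, both without overlap.

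Of 7 genes for the head and the decoding region of the small subunit, 3 fell and none rose. Mrps10 went from 55.3 ± 4.58 CPM to 45.6 ± 3.03 CPM (SD, n = 3 each), a fall of 0.28 on the log2 scale. Mrps2, the counterpart of bacterial uS2, stood at 72.2, 74.7 and 68.3 CPM with DMSO and at 59.1, 60.5 and 63.0 CPM with hymeglusin, and fell by 0.24 (adjusted p = 0.000807). Mrps5, the counterpart of uS5, fell by 0.16 at an adjusted p of 0.0345. That call was lost without DMSO replicate 2 (adjusted p = 0.118), hymeglusin replicate 1 (0.107) or hymeglusin replicate 3 (0.181), and by DESeq2 (0.0570). Mrps12, the counterpart of the decoding protein uS12, stood at 49.8 ± 2.16 CPM and 48.0 ± 4.05 CPM, which overlapped (log2 fold change −0.05 ± 0.065, adjusted p = 0.519). Mrps7 (−0.11, adjusted p = 0.125), Mrps9 (−0.09) and Mrps14 did not pass either.

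Other small subunit genes that fell were Mrps34, Mrps22, Mrps16 and Mrps35. Mrps34 went from 87.1 ± 1.67 to 73.4 ± 6.35 CPM, a log2 fold change of −0.25 ± 0.059. It shares 763 exon bases on the same strand with Nme3 (log2 fold change −0.39), and reads there cannot be assigned to either gene. On the opposite strand Mrps34 shares 1309 exon bases with Mapk8ip3 (0.08). Mrps35 stood at 63.2, 62.4 and 61.5 CPM with DMSO and at 50.9, 51.5 and 50.4 CPM with hymeglusin, without overlap; it is named here after its values were seen. Mrps22, whose promoter window with the ETS letters is printed above, fell by 0.23 on the log2 scale, although 1 of its DMSO libraries and 1 treated library were both at 33.6 CPM. Mrps16, at an adjusted p of 0.0180, also overlapped, and was called in neither of the fits without DMSO replicate 1 (adjusted p = 0.0598) or 3 (0.0510), nor without hymeglusin replicate 2 (0.0954) or 3 (0.0546). The call of Mrps22 was lost without DMSO replicate 1 (0.0539) or 2 (0.0790). The 3 proteins of the S18 family differed little: Mrps18a went from 54.7 to 59.2 CPM (log2 0.11, adjusted p = 0.116), Mrps18b from 42.4 to 38.4 CPM (adjusted p = 0.0688) and Mrps18c from 27.5 to 24.9 CPM (adjusted p = 0.128).

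In the large subunit, Mrpl20 had the largest fall. It encodes the counterpart of bL20, a protein that binds rRNA early in bacterial assembly, and stood at 72.4, 62.6 and 61.9 CPM with DMSO and at 55.1, 49.6 and 49.4 CPM with hymeglusin. The log2 fold change was −0.35 ± 0.064 (adjusted p = 2.23e-05), without overlap. Mrpl32, whose precursor is matured by the m-AAA protease of the inner membrane, stood at 17.1, 13.5 and 14.8 CPM and then at 10.98, 12.03 and 12.7 CPM. It fell by 0.34 (adjusted p = 0.00595), and without DMSO replicate 1, its highest library, the adjusted p was 0.0632. The genes of 2 other small bacterial-type proteins fell by similar amounts: Mrpl36 went from 24.0 ± 1.42 to 19.2 ± 1.27 CPM and Mrpl34 from 42.3 ± 2.04 to 34.3 ± 2.00 CPM.

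Other genes of the large subunit that fell included Mrpl3, the counterpart of uL3, which went from 66.0 ± 4.86 to 55.8 ± 3.899 CPM. Mrpl44, a protein near the exit tunnel with an RNase III-like fold, went from 40.7 ± 2.08 to 34.3 ± 1.07 CPM. It was 1 of 2 genes to fall among the 6 of the exit tunnel; the other was Mrpl17. Mrpl45, which anchors the ribosome to the inner membrane, stood at 46.8, 45.9 and 41.4 CPM with DMSO and at 43.5, 43.3 and 37.4 CPM with hymeglusin, and these groups overlapped (adjusted p = 0.175). Mrpl23 (−0.14, adjusted p = 0.197) did not pass. Of the 6 genes of the central protuberance 1 fell, Mrpl38.

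The stalk, which recruits translation factors, showed no call. Mrpl12 stood at 78.4 ± 6.33 and 73.5 ± 1.37 CPM, Mrpl10 at 77.7 ± 3.997 and 76.3 ± 1.70 CPM and Mrpl11 at 21.2 ± 0.754 and 20.4 ± 1.46 CPM, with adjusted p of 0.199, 0.745 and 0.550. None of the 3 had an unadjusted p under 0.05 with edgeR. Mrpl58, a peptidyl-tRNA hydrolase that became a ribosomal protein, went from 36.6 to 35.5 CPM (adjusted p = 0.628), and Mrps30 stood at 30.05 and 30.4 CPM (adjusted p = 0.825).

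The 3 genes that rose were Mrpl33, Mrpl16 and Mrpl49. Mrpl33, a small protein of the bacterial type bL33, stood at 45.2, 38.8 and 39.996 CPM with DMSO and at 48.6, 51.0 and 45.1 CPM with hymeglusin, so that its lowest treated library lay just below its highest control. The log2 fold change was 0.22 ± 0.067 (adjusted p = 0.00594), and 0.18 (adjusted p = 0.0616) without DMSO replicate 2. Mrpl49 stood at 60.9, 65.4 and 64.1 CPM and at 77.0, 65.5 and 71.1 CPM, with a gap of under 1 CPM between the groups. Its call (0.16 ± 0.060, adjusted p = 0.0236) was lost without hymeglusin replicate 1 (adjusted p = 0.231) or DMSO replicate 1 (0.0853), and by DESeq2 (0.0569). Mrpl16 went from 16.5 ± 0.338 to 19.1 ± 2.12 CPM at an adjusted p of 0.0494. Its call was lost with RLE scaling (adjusted p = 0.0506), limma-voom (0.0589), DESeq2 (0.135) and no filter on low counts (0.0687), and without 5 of the 6 libraries, each left out in turn (0.0772 to 0.196).

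**Figure D2:**
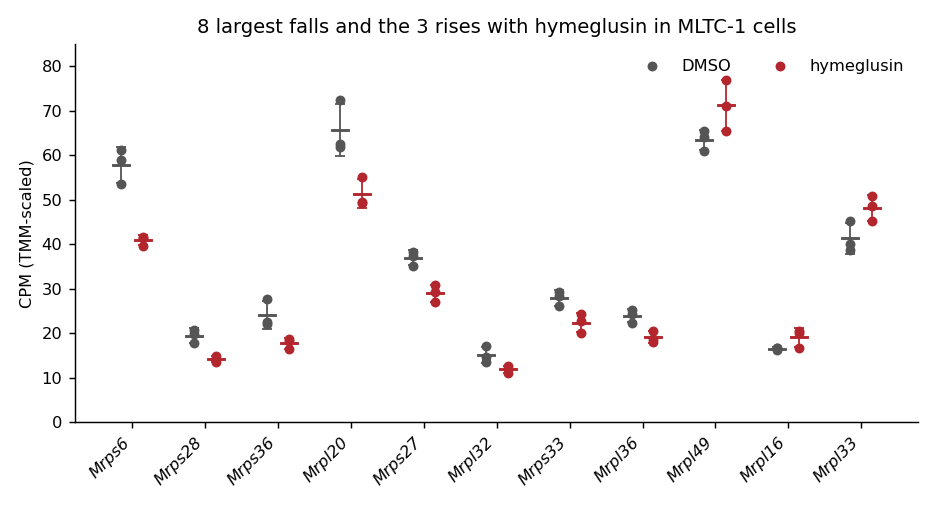
TMM-scaled CPM (y axis, linear from 0) of the 8 genes that fell most and the 3 that rose in the 3 DMSO and 3 hymeglusin libraries; points are libraries, bars are means and whiskers are the SD. Mrps6 went from 57.9 to 40.9 CPM, while the groups of Mrpl16 and Mrpl33 overlap.

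The genes were also grouped by a list of proteins with a bacterial counterpart. Of 29 listed large subunit genes 8 fell and 2 rose, and of 15 listed small subunit genes 5 fell, with medians of −0.08 and −0.11. Of the 33 other genes, with Mrps36 left out, 12 fell and 1 rose, with a median of −0.13. These 33 are only genes not on the list, and they include Mrps18a and Mrps18b of the S18 family. Whether these groups differ was not tested. Against the 200 other tested genes nearest in transcript length, each gene's log2 fold change lay at a median of 0.07 below the median of its neighbours, and 19 of 78 lay above it. With an offset for length the median over the 78 genes was −0.069 instead of −0.11.

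Of 5 other proteins of the particle that carry other names, 2 fell. Gadd45gip1, a large subunit protein, fell by 0.33 on the log2 scale (55.9 to 44.4 CPM, adjusted p = 3.79e-05), and Ptcd3, a small subunit protein with RNA-binding repeats, fell by 0.15 (adjusted p = 0.0291). Dap3, the GTP-binding small subunit protein, stood at 108 CPM in both groups. Of 24 factors that assemble the particle 2 fell and 3 rose: the RNA-binding protein Fastkd2 fell by 0.35 and the 16S rRNA-binding Ngrn rose by 0.28. Of 15 translation factors 8 fell and none rose, among them Lrpprc, which stabilises mitochondrial mRNAs (346 to 272 CPM), and Gfm2, a factor of ribosome recycling (59.9 to 47.4 CPM). Of 20 mitochondrial aminoacyl-tRNA synthetases and their relatives 5 fell and 4 rose; Gatb fell by 0.54 and Mars2 rose by 0.57.

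Among 10 matrix proteases and chaperones, 9 fell and none rose, with a median log2 fold change of −0.34. Lonp1, the protease that degrades unassembled matrix proteins, went from 1796 to 1161 CPM, and Hspd1, the matrix chaperonin, from 1131 to 792 CPM. The subunits of the m-AAA protease that matures Mrpl32 all fell, Afg3l1 by 0.36, Afg3l2 by 0.32 and Spg7 by 0.33. Of 15 regulators and components of mitochondrial transcription 5 fell and 1 rose: Yy1 fell by 0.30 and Twnk, the mitochondrial helicase, by 0.42, and Tefm, the elongation factor of mitochondrial transcription, rose from 2.23 to 4.41 CPM. Of the factors whose motifs were searched above, Gabpa fell by 0.27 and Nrf1 stood at 51.8 and 48.9 CPM (adjusted p = 0.277). The cytosolic ribosomal proteins (44 of 84 fell, 1 rose, median −0.14) and the nuclear respiratory chain subunits (41 of 80 fell, 2 rose, median −0.16) gave medians near that of the mitochondrial ribosome.

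The second comparison, between ages, asked how Leydig cells of old mice differ from those of young mice. At 24 months 31 of the 78 genes rose and none fell, and 47 did not pass the test (edgeR's quasi-likelihood test, adjusted p under 0.05 over 16381 genes). Among all tested genes 13.5% rose and 15.1% fell. The log2 fold change was above 0 for 75 of 78 genes, with a median of 0.94 against −0.01 over all genes, and 36 genes were more than 2-fold higher. Both 24-month libraries lay above both 2-month libraries for 74 genes, against 35.9% of all tested genes. No gene had a log2 fold change below 0 with an unadjusted p under 0.05, and DESeq2 and limma-voom called none lower. DESeq2 called 40 of the 78 higher (15.7% of its 17009 genes were called higher and 17.3% lower).

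These counts rest on few libraries. The first 24-month library was the higher of the pair for 69 of 78 genes, and without it 48 genes rose and the median was 0.60, while without the second 64 rose. Of all genes tested in these fits, 15.8% rose and 23.9% fell without the first, and 25.1% rose and 33.2% fell without the second. Without either 2-month library 0 genes passed (22 and 8 at an unadjusted p under 0.05, without the first and the second), where 1.4% and 2.83% of all tested genes rose and 3.53% and 5.72% fell. With total counts in place of TMM, which moved the median of all genes to −0.21, 0 genes passed (36 unadjusted; 3.24% of all tested genes rose and 7.94% fell). The median stayed above 0 in each of these fits.

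By subunit, 21 of 49 large subunit genes rose (median 0.96) and 10 of 29 small subunit genes rose (median 0.91). The largest rise was that of Mrpl52, a large subunit protein without a bacterial counterpart. It stood at 45.2 and 42.9 CPM at 2 months and at 282 and 87.7 CPM at 24 months. The log2 fold change was 2.07 ± 0.51 (SE, adjusted p = 0.0201), and both old libraries were above both young ones, 1 of them by far. Mrpl54 stood at 32.0 and 33.2 CPM and then at 170 and 68.1 CPM, and rose by 1.87 ± 0.44 (adjusted p = 0.0185). In Mrpl52 and Mrpl54 the first old library held over 2 times the level of the second.

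Of 29 large subunit genes with a bacterial counterpart 13 rose, with a median of 0.96. Mrpl33 stood at 48.2 and 37.6 CPM at 2 months and at 177 and 90.7 CPM at 24 months (1.64 ± 0.40, adjusted p = 0.0195). Mrpl34 stood at 31.3 and 26.6 CPM and then at 117 and 55.5 CPM (1.57, adjusted p = 0.0231). Mrpl28, the counterpart of bL28, rose by 1.59 from 36.8 and 34.0 CPM to 142 and 71.6 CPM, and Mrpl4, the counterpart of uL4, rose by 1.51 from 64.2 and 59.4 CPM to 252 and 99.6 CPM. All 4 separated the ages without overlap. With an offset for the length of the longest protein-coding transcript Mrpl33 and Mrpl34 stood at −0.014 and −0.018. Mrpl36 (0.79, adjusted p = 0.0909) and Mrpl32 did not pass.

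In the stalk 2 of 3 genes rose. Mrpl12 stood at 44.8 and 43.9 CPM at 2 months and at 181 and 87.6 CPM at 24 months (1.597 ± 0.40, adjusted p = 0.0214). Mrpl11, at the stalk base, rose by 1.48 ± 0.39 from 43.5 and 34.9 CPM to 142 and 76.3 CPM. Mrpl10 was at 67.5 and 58.8 CPM and then at 120 and 90.9 CPM, and did not pass (0.74, adjusted p = 0.115). Of the 6 genes of the central protuberance 1 rose, Mrpl27, and of the 6 of the exit tunnel 2 rose, Mrpl22 and Mrpl23 (28.1 ± 3.94 to 77.0 ± 30.03 CPM, SD, n = 2 each). Mrpl45 stood at 36.3 and 31.1 CPM and at 66.8 and 46.2 CPM (adjusted p = 0.119). Mrpl44 was at 28.9 and 21.6 CPM and at 24.5 and 24.2 CPM, so that the old libraries lay between the young ones. Mrpl58 rose by 1.43 ± 0.37, from 29.99 and 25.5 CPM to 95.8 and 53.5 CPM.

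In the small subunit Mrps24 rose most, from 40.4 and 31.2 CPM to 170 and 79.8 CPM (1.81 ± 0.42, adjusted p = 0.0171). It shares 226 exon bases on the same strand with Urgcp, and reads there cannot be assigned to either. Mrps12, of the decoding region, rose by 1.21 ± 0.38 from 39.2 and 33.8 CPM to 111 and 58.5 CPM, the only 1 of 7 genes of the head and decoding region to pass. Mrps16 rose by 1.23 from 42.6 and 37.4 CPM to 123 and 64.6 CPM, and Mrps36 rose by 1.38 from 31.3 and 26.6 CPM to 96.5 and 53.7 CPM. Within the S18 family, Mrps18a (24.7 and 23.7 CPM to 83.6 and 41.8 CPM, adjusted p = 0.0300) and Mrps18b (28.8 and 25.9 CPM to 67.8 and 45.6 CPM, adjusted p = 0.0443) rose, and Mrps18c went from 50.2 and 36.5 CPM to 72.4 and 60.5 CPM and did not pass (adjusted p = 0.180). Mrps18b and the large subunit gene Mrpl42 lost their calls with the replicate number as a block (adjusted p = 0.0582 and 0.0507).

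Several genes of the core did not pass at 24 months. Mrps6, which fell most with hymeglusin, was at 17.5 and 14.7 CPM at 2 months and at 42.7 and 22.2 CPM at 24 months (1.01 ± 0.39, adjusted p = 0.0777), while the log2 fold change of its partner Slc5a3 was −1.87. Mrpl32 stood at 32.0 and 26.5 CPM and at 42.5 and 42.6 CPM (adjusted p = 0.215). Mrpl3 was at 48.1 and 45.2 CPM and at 53.3 and 50.2 CPM, and Mrps34 at 74.5 and 55.4 CPM and at 126 and 81.1 CPM. The log2 fold changes of Nme3 and Mapk8ip3, which share exon bases with Mrps34, were 1.16 and −1.07. Mrps5 (0.57), Mrps7 (1.02), Mrps22 (0.38) and Mrps30 (0.43) had log2 fold changes above 0 and adjusted p from 0.0574 to 0.384. The 3 genes below 0 were Mrps2 (39.7 and 30.4 CPM to 27.9 and 32.3 CPM, −0.22), Mrpl50 (−0.10) and Mrpl44 (−0.05), and each overlapped between the ages.

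**Figure D3:**
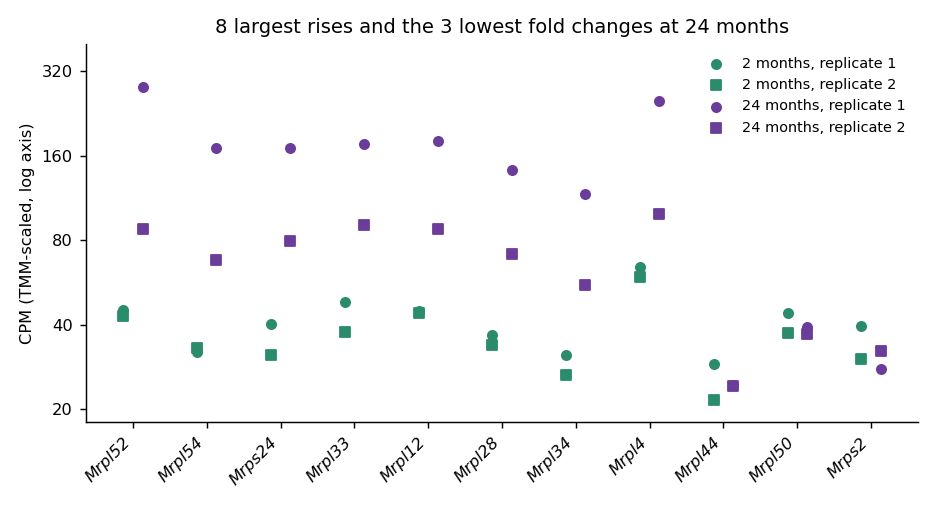
TMM-scaled CPM (y axis, log scale) of the 8 genes with the largest rise and the 3 with the lowest fold change at 24 months; each point is a library, with circles for replicate 1 and squares for replicate 2. Mrpl52 reached 282 and 87.7 CPM at 24 months, while the ages overlap for Mrpl44, Mrpl50 and Mrps2.

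The spread of the group in both comparisons appears in the plot of log2 fold changes by subunit. With hymeglusin the values ran from −0.50 (Mrps6) to 0.22 (Mrpl33), and at 24 months from −0.22 (Mrps2) to 2.07 (Mrpl52), with standard errors several times as large. Of the 26 genes that fell with hymeglusin, 5 rose at 24 months: Mrpl20, Mrpl34, Mrps16, Mrps28 and Mrps36, which is 19.2% of the first list and 16.1% of the second. Over all 78 genes 31 rose at 24 months, so the share among the 26 was below that. The overlap was not tested. Mrpl33 rose in both comparisons.

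**Figure D4:**
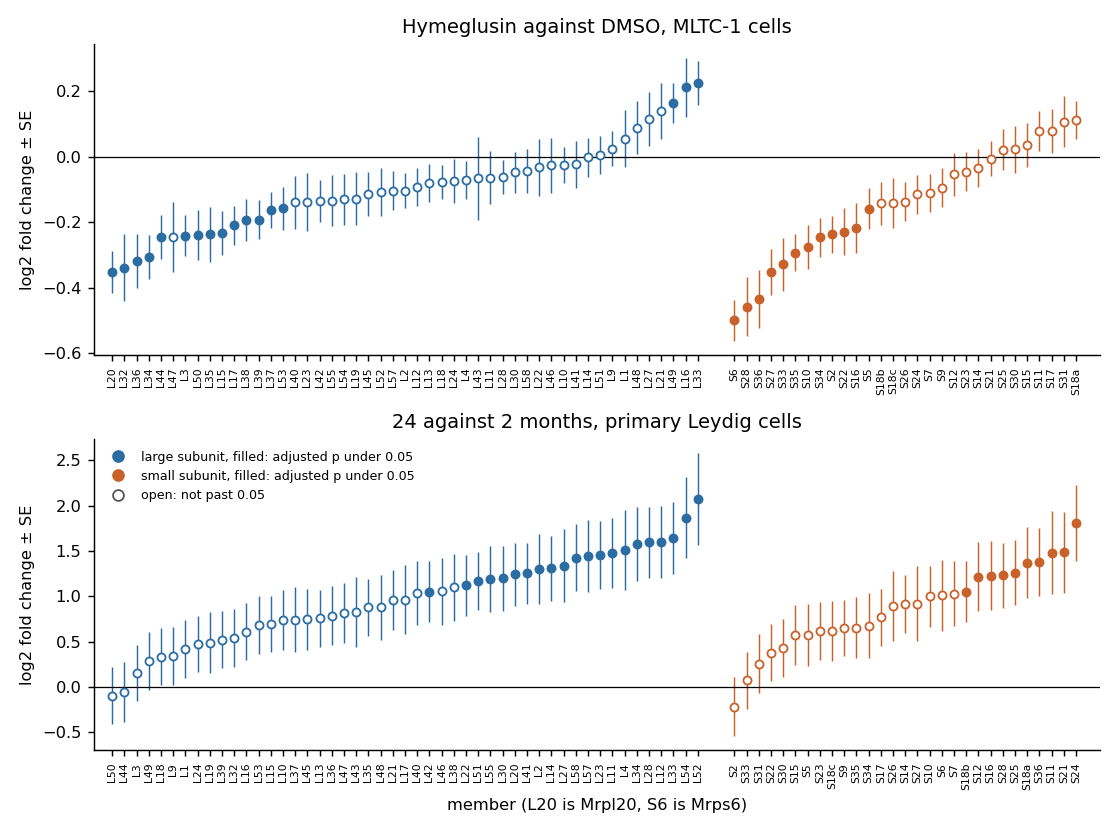
log2 fold change ± SE (y axes, with different ranges) of all 78 genes with hymeglusin (top) and at 24 months (bottom), sorted within the large subunit (blue) and the small subunit (orange); filled points have an adjusted p under 0.05. With hymeglusin 26 filled points lie below 0 and 3 above, and at 24 months 31 lie above 0 and none below.

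Fold changes at 24 months followed transcript length across the whole table. Over 14855 tested genes with an annotated protein-coding transcript, which share the same 4 libraries, Spearman's rho between log2 fold change and length was −0.65, and within the 78 genes it was −0.45. With hymeglusin it was 0.06 over 12046 genes. The 78 genes are short, with a median length of 1328 bases against 2865 over the tested genes, so genes of similar length were taken as their background. For each gene these were the 200 other tested genes nearest in length, 100 shorter and 100 longer, with or without a coding transcript. The median of the neighbours' median log2 fold changes was 0.90, next to 0.94 for the ribosomal proteins. On average 30.3% of the neighbours rose, against 31 of 78. The median difference between a gene and its neighbours was 0.04, and 40 of 78 lay above them.

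The neighbours differed from the ribosomal proteins by length. By length, the shortest 26 genes (463 to 1056 bases) had a median log2 fold change of 1.28, with 20 genes that rose, against a neighbour median of 1.47. The middle 26 (1068 to 1849 bases) had 0.75 against 0.90, with 5 that rose. The longest 26 (1962 to 7300 bases) had 0.79, with 6 that rose, against a neighbour median of −0.39. Genes of the mitochondrial ribosome with long annotated transcripts thus stood above other genes with transcripts as long. How much of this comes from the annotated length was not tested beyond other definitions. With the length of the longest transcript of any type, often a retained intron here (18 of 78 genes), the median difference from the neighbours was 0.37, and with the shortest coding transcript it was 0.30.

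**Figure D5:**
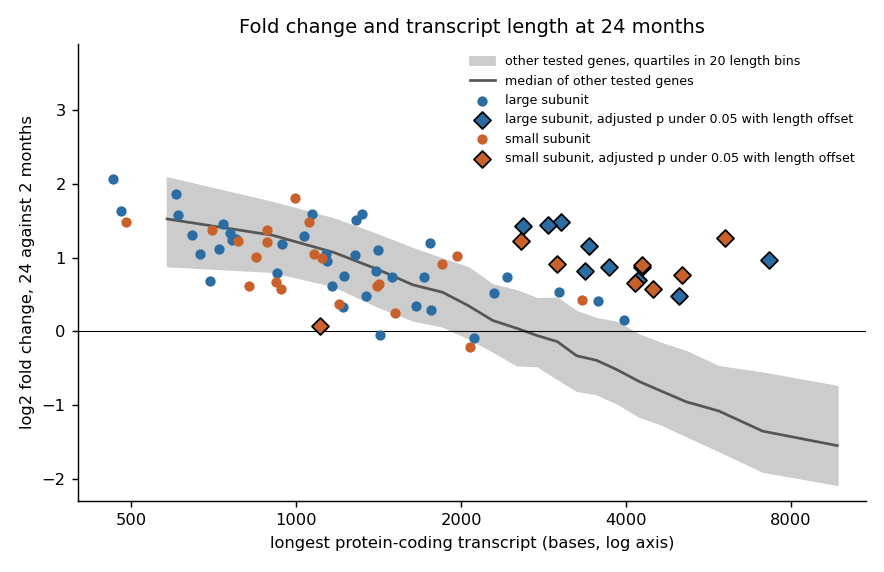
log2 fold change at 24 months (y axis) against the longest protein-coding transcript (x axis, log scale) for the 78 genes, over the median (line) and quartiles (grey band) of other tested genes in 20 length bins; diamonds mark an adjusted p under 0.05 with the length offset. The 17 diamonds at 1962 bases or more are the genes that rose with the offset, and the diamond at 1107 bases is Mrps33, which fell with it.

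The fit was repeated with an offset per library that removes a smooth trend on length. With it 17 of the 78 genes rose and 1 fell, against 8.09% and 5.04% of all tested genes, and the median log2 fold change was −0.0023. All 17 were among the longest 26, 10 in the large and 7 in the small subunit, and 6 of them were among the 31 of the fit without the offset: Mrpl11, Mrpl51, Mrpl57, Mrpl58, Mrps16 and Mrps25. The 8 largest rises above, from Mrpl52 to Mrpl4, had offset log2 fold changes of −0.02 to 0.65 in this fit, and none passed. With an offset for the longest transcript of any type Mrpl33 and Mrpl4 still passed, and with the shortest coding transcript Mrpl12 did. The shortest coding transcript was sought only in GENCODE's basic set of transcripts. For 10 of the 17 it is as long as the longest coding transcript, and the other 7 have a shorter one. Those 10, named after their values were seen, are Mrpl19, Mrpl35, Mrpl47, Mrpl51, Mrpl57, Mrps5, Mrps16, Mrps25, Mrps26 and Mrps35, and they passed under all 3 definitions of length. These fits are no separate checks for them, since the shortest coding transcript is as long as the longest, and for each but Mrps35 the longest transcript of any type is too. With the longest transcript of any type 23 genes rose and 1 fell, against 8.58% and 5.48%. On the opposite strand, Mrpl19 shares 1962 exon bases with Gcfc2, and Mrpl47 shares 452 with Actl6a and 616 with Ndufb5.

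Mrps25 is the clearest case by adjusted p. It stood at 36.9 and 26.2 CPM at 2 months and at 89.3 and 61.9 CPM at 24 months, without overlap. Its log2 fold change was 1.26 ± 0.35 without the offset and 2.49 ± 0.37 with it (adjusted p = 0.0290 and 0.000414), against a neighbour median of −1.18 at its 6073 bases. It shares 4590 exon bases with Nr2c2 on the opposite strand, which fell by 2.26, and the strand setting of the counting is not given in the sources used here, so reads of the pair may not be told apart. Mrpl51, at 66.6 and 56.9 CPM and then at 147 and 130 CPM, rose by 1.16 without and by 1.51 with the offset (adjusted p = 0.0271 and 0.00394). Both old libraries were close to each other for Mrpl51, unlike most of the genes above.

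Mrps17 (45.7 and 36.9 CPM to 73.8 and 66.9 CPM), Mrpl17 (69.1 and 60.8 to 165 and 87.7 CPM), Mrpl48 (38.8 and 39.4 to 91.2 and 52.9 CPM) and Mrpl15 (32.0 and 29.4 to 51.2 and 48.2 CPM) did not pass in the fit of the 4 libraries without the offset and passed with it, with log2 fold changes of 1.70, 2.44, 1.598 and 1.34. Without the offset, all 4 also passed when the second 24-month library was left out. Each also has a coding transcript of 832, 1028, 1625 or 1569 bases, far below the 4203 to 7300 bases used. With the shortest coding transcript in place of the longest, 13 genes rose and none fell, against 8.55% and 9.11% of all tested genes. Mrpl35, with 3721 bases under both definitions of coding length, stood at 24.6 and 24.2 CPM and at 47.1 and 42.5 CPM. It passed with the offset (1.34, adjusted p = 0.00852). Mrps33 was the gene that fell with the offset (−0.98, adjusted p = 0.0475), although the young libraries stood at 29.5 and 27.0 CPM and the old ones at 30.2 and 29.2 CPM. Its neighbours in length rose by a median of 1.17.

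The markers of other cells moved in the same comparison. All 8 spermatid markers rose at 24 months (median log2 fold change 2.05). Their median length was 887.5 bases, and with the length offset 1 of the 8 rose, with a median of 0.61. Their summed level in the first old library (9596 CPM) was nearly 2 times that in the second (4936 CPM), the order seen in most ribosomal proteins. Of 10 macrophage markers 9 were tested and 4 rose, and all 10 summed to 11.2 and 13.7 CPM in young libraries against 53.8 and 34.5 CPM in old ones. The 5 fibroblast markers summed to 591 and 621 CPM at 2 months and to 117 and 198 CPM at 24 months; 3 fell and 1 rose. Their part in the values of the ribosomal proteins was not tested. In MLTC-1 cells spermatid markers summed to 0.407 to 1.30 CPM, and Tnp2 was at 0 in all 6 libraries.

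Of the other proteins of the particle, 2 of 5 rose at 24 months, Gadd45gip1 (57.6 to 158 CPM, 1.46) and Aurkaip1 (71.4 to 159 CPM, 1.15). With the length offset Gadd45gip1 and Dap3 passed, and Aurkaip1 did not (0.08). Of 24 assembly factors 1 rose, Malsu1, which keeps the subunits apart until the large one is complete (16.0 to 36.3 CPM, 1.18 ± 0.34), and none fell. Of 15 translation factors 1 rose and 1 fell, and these form a complex: Slirp went from 27.5 to 71.1 CPM and Lrpprc from 91.9 to 37.7 CPM (adjusted p = 0.0214 and 0.0255). None of 20 tRNA synthetases and relatives passed in edgeR, with 1 higher and 1 lower at an unadjusted p under 0.05. The medians of these 3 lists were 0.08, −0.15 and −0.14, against 0.94 for the ribosomal proteins. Their median lengths were 1954, 2623 and 3282 bases, and with the length offset their medians were −0.20, −0.19 and 0.14, against −0.0023. Whether the lists differ was not tested. With the offset Malsu1 (1.26) and Slirp (1.40) passed, and Lrpprc did not (−0.61, adjusted p = 0.194). Of the translation factors, Mtif3 also rose with the offset (1.15, adjusted p = 0.0284) and Taco1 fell (−1.49, adjusted p = 0.0181).

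Of 10 matrix proteases and chaperones 1 rose, Clpp (54.8 to 163 CPM), and none fell. With the length offset none rose, with Clpp at 0.34 (adjusted p = 0.506), and the chaperonins Hspd1 (−1.18, adjusted p = 0.0225) and Hspe1 (−1.02, adjusted p = 0.0378) fell. Among 16 transcription regulators Myc rose (27.4 to 95.2 CPM) and Pprc1, a coactivator related to PGC-1, and Polg, the mitochondrial DNA polymerase, fell (19.2 to 4.43 CPM and 68.5 to 29.9 CPM). With the offset Myc and Pprc1 passed in the same directions (1.64 and −1.18), whereas Polg turned to 0.20 and did not pass (adjusted p = 0.714). Tfam rose with the offset (1.43, adjusted p = 0.00480) but did not pass without it (0.80, adjusted p = 0.0783). Cytosolic ribosomal proteins had a median of 1.27 with 59 of 87 that rose, and nuclear respiratory chain subunits a median of 1.37 with 58 of 84. With the length offset 4 of each rose and the medians were 0.03 and 0.08, against 17 of 78 and −0.0023 for the mitochondrial ribosome. The median lengths of these 2 lists were 937 and 849.5 bases, against 1327.5. All 17 were among the longest 26 of the 78 genes, so the counts compare lists of unlike length.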

How the data were processed

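RNA was purified with an RNeasy kit and made into libraries with NEBNext Ultra RNA reagents, per the labels' protocols. The submitters' processing notes name fastp 0.23.4, FastQC 0.12.1, HISAT2 2.2.1, featureCounts 2.0.6 and mm10, while no source used here gives options, strand setting or annotation. The table deposited by the authors holds raw read counts per gene symbol for 10 libraries, with 17407456 to 34787330 counts each. Every value column was matched to a sample by its name, and the 10 samples were grouped by their labels.

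Each comparison was fitted on its own libraries with edgeR 4.0.16 in R 4.3.3: filterByExpr (minimum count 10, total 15), TMM scaling and the robust quasi-likelihood test, two-sided, with Benjamini-Hochberg adjustment over all tested genes and a threshold of 0.05. DESeq2 1.42.0 and limma-voom (limma 3.58.1) were alternatives, as were other scalings and filters, a replicate block, 1 fit of all libraries, leaving out each library and offsets for transcript length and GC content. The offsets came from a loess curve (span 0.3, 2 passes) per library. Lengths are those of the longest protein-coding transcript in GENCODE M21 (GRCm38). Other definitions of length were added after the data were seen. The fitting scripts were tested on simulated counts. Counting error is small at these depths, and the number of libraries limits the precision.

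The rule for naming genes took, from each comparison, the 8 largest folds per direction that passed the threshold without overlap of the groups, up to 8 by adjusted p with the length offset at 24 months, 22 genes of known role, up to 2 per direction of each other list, and the extremes of level per length. Others are named where a count of 5 or fewer needed it or where the text says so. The genes, the lists and the length background were chosen with earlier results of these data known. Same-numbered replicates of the cell line did not deviate together (correlations of -0.024 to 0.032). For primary cells the correlation was -0.091, and with 2 libraries per age the deviations mirror each other. Pairs of unlike number there give the same value with the sign reversed, so pairing could not be judged for them. The numbers were not taken to pair samples. Of the replicates, none matched within sampling noise.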

Additional observations from a re-analysis of the deposited data

How the results depend on the processing

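With hymeglusin, total counts gave 11 genes higher and 11 lower (median log2 fold change -0.0042), 1 fit of all 10 libraries gave 0 and 0 (median -0.027; 1 higher and 0 lower at an unadjusted p under 0.05), DESeq2 gave 1 higher, the length and GC offset gave 5 higher, and the length offset gave a median of -0.069. Leaving out 1 library gave 1 to 3 higher, 19 to 26 lower and medians of -0.12 to -0.08. At 24 months, total counts gave 0 higher, 1 fit of all 10 libraries 71, the length offset 17, the length and GC offset 19 and the offset for the shortest coding transcript 13. For the fit of all 10 libraries and the length and GC offset, the share of all tested genes is not given. Their counts therefore stand without a background. The genes lower were 1 with the length offset, 2 with the length and GC offset and 1 with the longest transcript of any type. The medians were -0.0023, 0.0018 and 0.38 under these 3 offsets and 0.37 with the shortest coding transcript, and the difference from genes of similar length was 0.37 with the longest transcript of any type. Leaving out 1 library gave 0 to 64 higher, 0 to 0 lower and medians of 0.60 to 1.17. At 24 months 39, 39 and 29 of the 78 genes lay below 0 with the length offset, the length and GC offset and the longest transcript of any type. Among genes that the naming rule gave and that passed with or without the offset, those that turned from above 0 to below 0 with the length offset were Mrpl33 (-0.014), Mrpl34 (-0.018), Mrpl42 (-0.39), Mrps12 (-0.11), Mrps18b (-0.070), Mrps21 (-0.21), Mrps33 (-0.98) and Mrps36 (-0.10). With the length and GC offset those that turned were Mrpl34 (-0.15), Mrpl42 (-0.29), Mrps12 (-0.20), Mrps18a (-0.046), Mrps18b (-0.076), Mrps21 (-0.28) and Mrps33 (-0.84), and with the longest transcript of any type Mrpl34 (-0.047), Mrps12 (-0.14), Mrps18b (-0.11), Mrps21 (-0.22), Mrps33 (-1.01) and Mrps36 (-0.12). The cause of these changes was not tested. With the replicate number as a block, 3 genes were higher and 28 lower with hymeglusin, and 30 were higher and 0 lower at 24 months. A group of 2 libraries per age limits every result at 24 months.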
